A study of Mus musculus with 2 samples.

Results

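The collagen chain genes are the protein-coding mouse genes whose symbols consist of Col, a number, the letter a and a second number, such as Col1a1. Of 21900 protein-coding genes in the RefSeq table, 44 matched, and 25 of these carried at least 1 peak of N6-methyladenosine (m6A), a methyl mark on adenosines inside mRNA. The peaks come from methylated RNA immunoprecipitation sequencing of uterus, in which RNA fragments bound by an antibody against m6A (IP) are sequenced and compared with unselected fragments (input). Wild-type females aged 6 to 8 weeks were mated with fertile males and killed on gestational day 4, counting the day of the vaginal plug as day 1. PolyA RNA from a cell type labelled mixed went into 1 IP sample and 1 input sample. They do not state how many animals were pooled. With 1 library of each kind there is no spread between animals and no test between conditions, so everything below describes 1 peak list. Each of the 26584 peaks has a name beginning D8NegIP-Posinput, at odds with a label of day 4. Whether the list belongs to day 4, and whether the labelled input was its background, could not be settled.

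Collagens are the fibre and network proteins of connective tissue. Each molecule is a triple helix of 3 chains, in which glycine recurs at regular steps. Fibrillar types I, III and V form the fibres of the uterine stroma and muscle wall, type IV forms the sheets of basement membranes under epithelium and around vessels, and type VI forms beaded filaments near cells. m6A is placed on nascent mRNA by a methyltransferase complex. It is known to be dense near stop codons and in long exons and sparse beside splice junctions. In fibrillar collagen genes much of the triple helix is encoded by many short exons, while the globular domains of the long type VI chains are encoded by long ones. The gene table used here gives spans without exons, so no peak was placed in an exon, an intron or an untranslated region.

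A peak was counted for a gene when its summit, the base with the highest IP signal, lay in the gene's span on the mm10 assembly. Its fold enrichment is the peak caller's ratio of IP fragments plus 1 to background fragments plus 1 at the summit. The number of IP fragments (the pileup) and the background were solved from that ratio and the deposited p-value. The 156 collagen peaks had a median pileup of 27 fragments (range 4 to 150), against 18 over all peaks, and 16 of them rested on fewer than 10 fragments. Bracketed ranges after a fold enrichment are 95% Poisson intervals of the pileup, and those after a share are 95% Wilson intervals. Both cover counting error only. The Poisson intervals vary the pileup alone and take the background as known, so error in the background is left out of every comparison of them.

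As a group, the collagen genes were marked about as often as other genes under the main rule. The 25 of 44 with a peak make 56.8% (42.2 to 70.3), and the share over all protein-coding genes was 44.9%, which lies inside that interval. When a summit had to lie in exactly 1 gene, the same 56.8% stood beside 40.9%, just below the interval. Their strongest peaks were not high either. The median over the 25 genes was 8.29, with an order-statistic interval of 7.36 to 10.8, beside 9.36 over the 9831 protein-coding genes with a peak. What set the marked collagen genes apart in size was the number of peaks per gene, a median of 5 beside 2 over all genes with a peak. Their spans were also longer, with a median of 114 kb beside 27.4 kb, and the median density of 0.0474 peaks per kb had an interval of 0.0248 to 0.0700 that held the 0.0696 of all genes with a peak. Of the 25, 5 genes had 10 or more peaks, namely Col6a3, Col6a2, Col6a1, Col6a4 and Col4a5, where the share over all genes with a peak was 1.6%. Without the 1 added to numerator and denominator, the median of each gene's highest ratio was 15.6. No value over all genes is given on that scale, so the 15.6 cannot be set beside the 9.36.

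The classes of collagen differed in how their peaks were distributed. Type VI, with 6 genes, held 73 of the 156 peaks (46.8%, 39.1 to 54.6), while the 11 fibrillar genes held 29 (18.6%) and the 6 type IV genes 23 (14.7%). All 5 type VI genes with a peak had a strongest peak above the median of 9.36 over all genes, compared with 5 of the 20 other collagen genes with a peak. A gene with more peaks has more chances of a high one, and type VI genes had 8 to 24 each. The median over each gene's own peaks was 6.19 in Col6a1, 6.38 in Col6a2, 6.78 in Col6a4, 7.17 in Col6a3 and 7.49 in Col6a6. By that measure only Col6a6 was above the corresponding median of 7.43 over protein-coding genes with a peak. The intervals of the strongest peaks of Col6a1, Col6a4 and Col6a6 also reached below 9.36. Of the 43 collagen peaks that spanned 500 bp or more, 28 were of type VI, the class with 73 of the 156 peaks. Collagen peaks were not wide as a group, with a median width of 289.5 bp and an upper quartile of 512 bp. Over all peaks these were 322 and 573 bp. The genes of a class are not replicates, and no test of the classes was made.

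**Figure D1:**
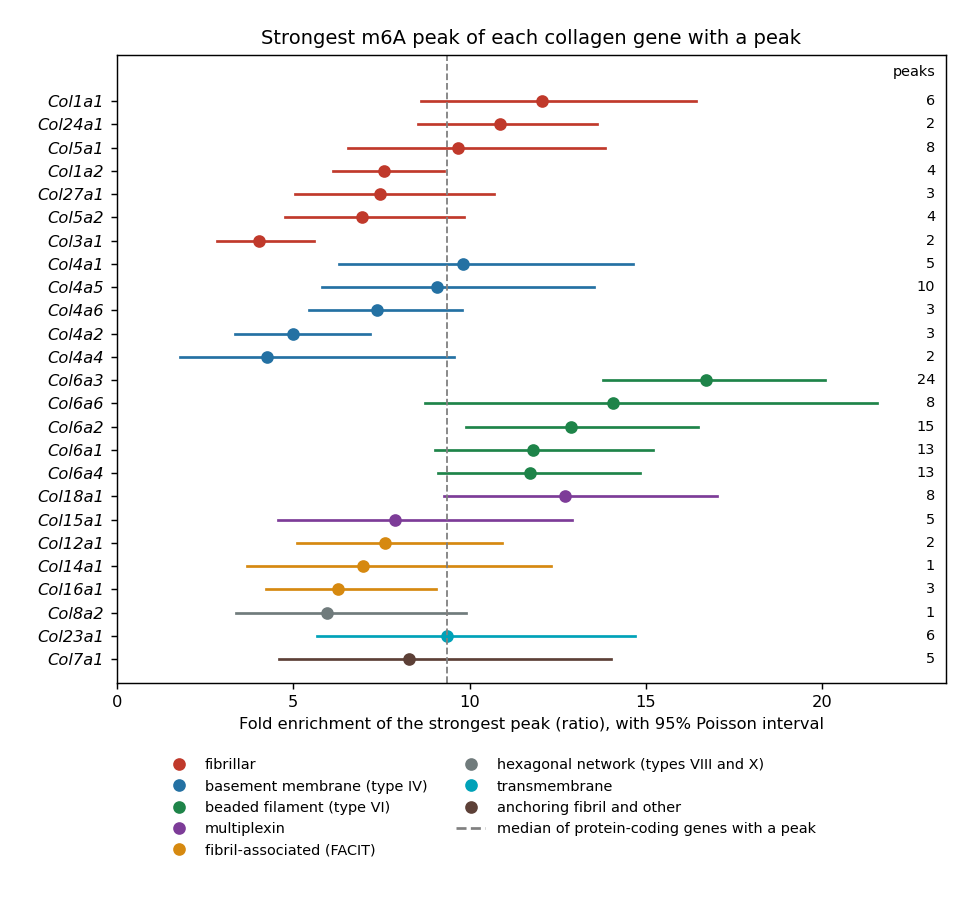
Fold enrichment (ratio, linear axis) of the strongest peak in each of the 25 collagen genes with a peak, as points with 95% Poisson intervals, coloured by collagen class, with the number of peaks in each gene at the right and a dashed line at the median of 9.36 over protein-coding genes with a peak. The 5 type VI genes all lie right of the line, from 11.7 in Col6a4 to 16.7 in Col6a3, and Col3a1 is lowest at 4.03.

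Type VI collagen is a heterotrimer whose α1 and α2 chains, encoded by Col6a1 and Col6a2, join a much longer α3 chain, encoded by Col6a3. In all 3 genes the peaks were spread along the span rather than gathered at an end. Col6a3, on chromosome 1 from 90766860 to 90844001, had 24 peaks with fold enrichments from 3.17 to 16.7, which covered 14.5% of the span. The strongest, at 90803667 to 90804332, had 112 fragments over a background of 5.77 and a fold enrichment of 16.7 (13.8 to 20.1). This was the highest of any collagen peak, but the intervals of 10 of the other 24 genes' strongest peaks reached into its interval. The next 2 in Col6a3 were 14.0 (11.4 to 17.1) at 90811334 to 90812018 and 12.2 (10.2 to 14.6) at 90778826 to 90779564, with 94 and 124 fragments. Neither lay at an end of the gene, and the 15.9 kb from the 5′ end held no summit. The peaks nearest to the 3′ end of the span stood at 4.18 and 5.98, both below the median of the gene.

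Col6a1, on chromosome 10 from 76708792 to 76726044, was the collagen gene most covered by peaks. Its 13 peaks took up 36.8% of a 17.3 kb span, and the longest stretch without a summit was 2.63 kb. From the 5′ to the 3′ end they stood at 5.17, 5.90, 5.28, 6.19, 4.81, 6.88, 11.8, 7.09, 6.60, 5.30, 5.43, 8.71 and 9.60. All but the 3 highest lay within a narrow band from 4.81 to 7.09. The highest, 11.8 (9.01 to 15.2), lay inside the gene, and the peak closest to the 3′ end, at 76708939 to 76710331, had the most fragments of any collagen peak, 150 over a background of 14.7. Among all protein-coding genes with a peak, 4.53% were covered to this degree or more.

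Col6a2, which lies near Col6a1 on chromosome 10 from 76595756 to 76623630, had 15 peaks over 26.1% of its span. Its highest value was 12.9 (9.89 to 16.5) at 76611047 to 76611623. In this gene 3 wide regions carried over 100 fragments each, 10.1 (8.55 to 11.9) at 76614086 to 76615394, 8.49 (6.97 to 10.2) at 76603341 to 76604562, and 7.78 (6.43 to 9.34) at 76595793 to 76596986 beside the 3′ end. Their intervals overlapped in every pair. A stretch of 8.77 kb behind the most 5′ peak held no summit.

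The remaining type VI genes, Col6a4, Col6a5 and Col6a6, lie in a row on chromosome 9 and encode long chains related to α3. They differed among themselves. Col6a4 had 13 peaks, the strongest 11.7 (9.12 to 14.8) with 67 fragments at 106074935 to 106075435, and a median background of 3.65. Col6a6 had 8 peaks, the strongest 14.1 (8.74 to 21.6), but on far fewer fragments, at most 19, over a median background of 0.327. Its high enrichment thus had a wide interval that reached from below the median of all genes to above the strongest peak of Col6a3. Of the 8 summits, 6 lay within 11.5 kb of a 139 kb span. Col6a5, between the other two, had no peak.

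**Figure D2:**
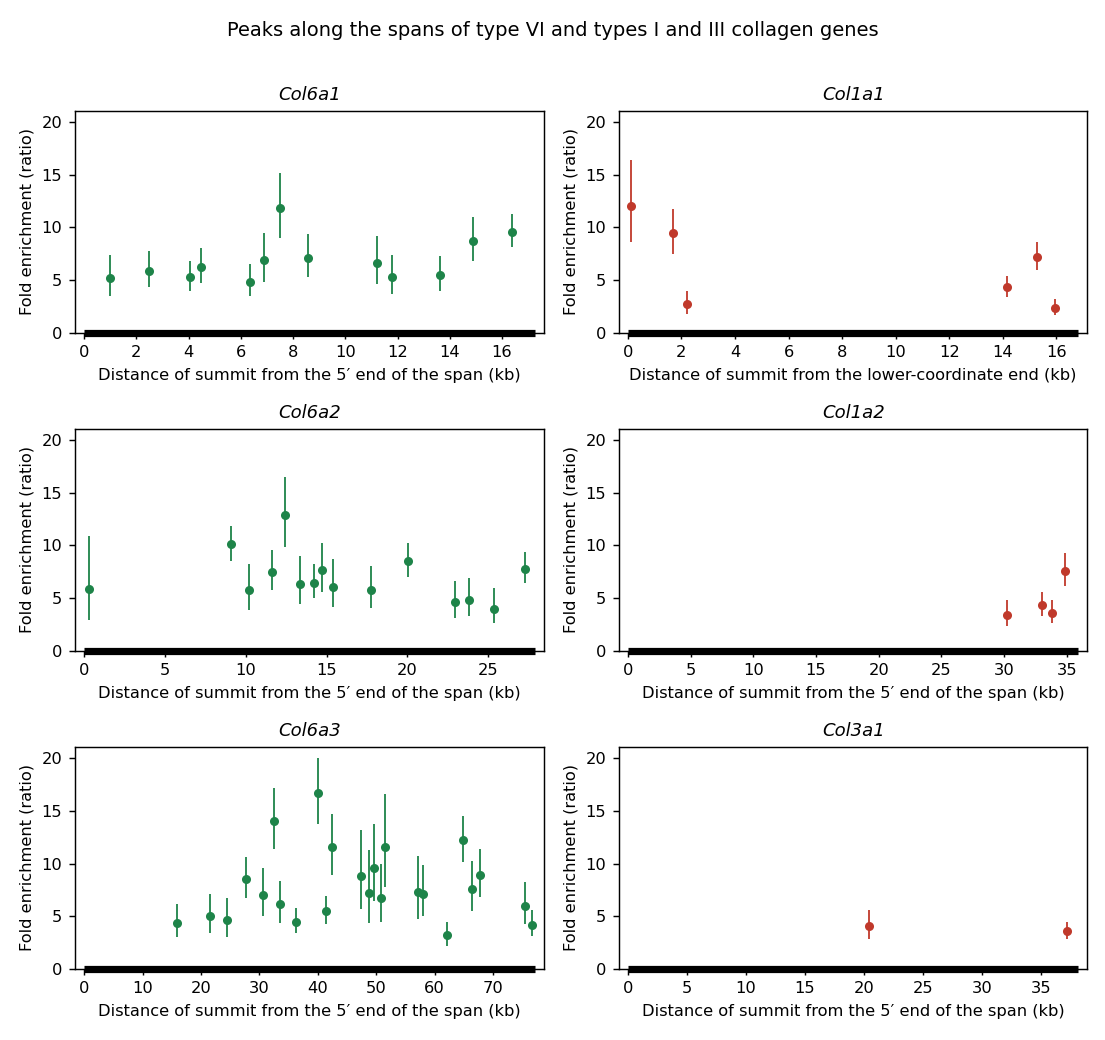
Fold enrichment (ratio) of every peak, with its 95% Poisson interval, against the distance of its summit in kb from the 5′ end of the span, or from the lower-coordinate end for Col1a1, whose strand was not in the tables used here. The black bar marks the span. Summits are spread through Col6a1, Col6a2 and Col6a3, whereas those of Col1a1 lie at both ends and those of Col1a2 near the 3′ end.

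The type I and III genes encode the most abundant collagens of soft tissue, and their peaks stood over the highest backgrounds. The median background was 14.3 fragments in Col3a1, 11.6 in Col1a1 and 11.2 in Col1a2, beside 1.54 over protein-coding genes with a peak. Col1a1, the α1 chain of type I, on chromosome 11 from 94936224 to 94953042, had 6 peaks in clusters of 3 at each end. The cluster at lower coordinates stood at 12.0 (8.61 to 16.4), 9.44 (7.52 to 11.7) and 2.68 (1.75 to 3.93). That at higher coordinates stood at 4.33 (3.41 to 5.42), 7.19 (5.94 to 8.62) and 2.34 (1.66 to 3.22). The 11.96 kb between the clusters, 71.1% of the span, held no summit. The 12.0 was measured over a background of 2.24, and the 7.19 at the opposite end had 114 fragments over 15.0.

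Col1a2, the α2 chain of type I, had 4 peaks on chromosome 6, all in the last 5716 bases of a 35.9 kb span. They stood at 3.42 (2.37 to 4.78), 4.33 (3.28 to 5.62), 3.57 (2.60 to 4.77) and, nearest to the 3′ end at 4540355 to 4541233, 7.57 (6.11 to 9.28). The last was above the other 3 by non-overlapping intervals. Col3a1, the single chain of type III, had 2 peaks on chromosome 1. One at 45331864 to 45332165, in the middle of the span, stood at 4.03 (2.82 to 5.58), and one 966 bases from the 3′ end stood at 3.60 (2.85 to 4.48) with 78 fragments over a background of 21.0, the highest background of any collagen peak. The interval of its strongest peak lay wholly below those of Col1a1 and Col1a2. A high background and a low ratio came together here, and the part of one in the other was not tested.

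Type V chains regulate the width of type I fibrils. Col5a1 had 8 peaks on chromosome 2, from 4.56 to 9.67 (6.54 to 13.8). That highest summit lies in the span of the long non-coding RNA gene Gm13372 as well, and the next, at 28007644 to 28007844, stood at 8.53 (5.30 to 13.1). The peak with most fragments, 93 over 11.7, was 2353 bases from the 3′ end and stood at 7.39 (5.98 to 9.03). Col5a2 had 4 peaks on chromosome 1, at 5.36, 6.95, 5.16 and 4.63 from lower to higher coordinates, with intervals that all overlapped. Col5a3 had none. The lesser fibrillar genes Col24a1 and Col27a1 each had peaks in the first 10% of long spans. In Col24a1 the peak at chromosome 3, 145313893 to 145315267, was 1375 bp wide and stood at 10.8 (8.52 to 13.6) from 72 fragments, against 2.68 (1.49 to 4.53) at its 5′ end. Col27a1 stood at 7.47, 5.41 and 6.00, the last in a part of the span shared with the long non-coding RNA gene Gm52743.

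The type IV genes are arranged as head-to-head pairs. Col4a1 and Col4a2, on chromosome 8, encode the chains found in nearly all basement membranes. Col4a1 had 5 peaks, at 9.81 (6.30 to 14.6), 6.10 (3.75 to 9.45), 5.84 (4.09 to 8.09), 5.16 (3.35 to 7.63) and 3.09 (2.07 to 4.44) from the 5′ to the 3′ end. The last lay below the first by its interval. Both of these lie in spans shared with long non-coding RNA genes, Gm32709 for the first and Gm15418 for the last, and among the unshared peaks the highest was 6.10. Col4a2 had 3, at 4.99 (3.35 to 7.18), 4.33 (2.73 to 6.58) and 4.64 (3.30 to 6.35), which did not differ beyond their intervals.

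Col4a5 and Col4a6, the pair on the X chromosome, encode chains of smooth muscle and epithelial basement membranes. Col4a5 had 10 peaks, the strongest 9.06 (5.83 to 13.5) at 141602057 to 141602518. Of its 10 summits, 7 were packed into 6.18 kb, which is 2.89% of its 214 kb span, with fold enrichments from 3.81 to 7.06. These lay at least 133304 bases from the 3′ end. A peak 942 bases from the 3′ end stood at 5.92 (4.49 to 7.67) with 55 fragments, the most of the gene. Col4a6 had 3 peaks, 2 near the 3′ end at 7.36 (5.43 to 9.77) and 6.28 (4.21 to 9.03) and 1 near the 5′ end at 4.40 (2.38 to 7.58). In the remaining pair, on chromosome 1 and best known from the kidney filter, Col4a4 had 2 peaks of 4 fragments each, both at 4.26 (1.78 to 9.57), and Col4a3 had none. The background of both Col4a4 peaks was 0.175 fragments, the lowest value in the whole peak list. In all, 5 collagen peaks, in Col4a4, Col23a1 and Col6a6, stood over that lowest background. When a −log10 q of 5 or more was asked for, Col4a4 lost both peaks and 24 of 44 genes (54.5%) kept one, beside 41.3% of all protein-coding genes.

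Of the multiplexins, basement membrane collagens that release antiangiogenic fragments, Col18a1 was the more enriched. Its 8 peaks on chromosome 10 stood from the 5′ to the 3′ end at 5.15, 12.7, 11.2, 9.46, 10.8, 5.15, 9.18 and 5.74. The median of 9.32 over them was the highest of any collagen gene. The strongest, 12.7 (9.28 to 17.0), lay at 77096001 to 77096684, inside the gene. Col15a1 had 5 peaks, from 7.90 (4.56 to 12.9) at a 5′ summit shared with the long non-coding RNA gene Gm12426 to 2.95 (2.05 to 4.13) near the 3′ end. Its highest unshared peak stood at 5.57 (3.51 to 8.46).

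Fibril-associated collagens, which coat fibrils rather than form them, had peaks in 3 of 9 genes (33.3%, 12.1 to 64.6), an interval that holds the 44.9% of all protein-coding genes. Col12a1 stood at 7.59 (5.09 to 10.9) and 5.14 (3.07 to 8.16), Col14a1 at 6.98 (3.68 to 12.3) in its only peak, and Col16a1 at 4.30, 4.49 and 6.28 (4.21 to 9.03). Col7a1, the anchoring fibril collagen of stratified epithelium, had 5 peaks from 5.65 to 8.29 (4.59 to 14.0), on at most 12 fragments. Col23a1, a transmembrane collagen, had 6 peaks, all in the last 12797 bases of a 294 kb span, from 4.91 to 9.36 (5.67 to 14.7). Its pileups were 7 to 17 fragments. Col8a2, a network collagen of vessel walls and cornea, had 1 peak of 5.97 (3.38 to 9.90).

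The 19 genes without a peak included the main collagens of cartilage. Col2a1, the cartilage fibril chain, its partners Col11a1 and Col11a2, the associated chains Col9a1, Col9a2 and Col9a3, and Col10a1 of hypertrophic cartilage had none. Of 6 other cartilage genes examined as markers, Acan, Comp, Hapln1, Matn1, Matn3 and Snorc, none had a peak either (0%, 0 to 39.0). Lacking a peak was common, since 12069 of all 21900 protein-coding genes had none and 44.9% had one. The other collagen genes without one were Col4a3, Col5a3, Col6a5, Col8a1, Col13a1, Col17a1, Col19a1, Col20a1, Col22a1, Col25a1, Col26a1 and Col28a1. Read depth is known here only under peaks, so a transcript that was not made, one that was too scarce and one without the mark cannot be told apart.

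Most genes examined as markers of the tissue carried peaks. All 4 uterine genes (Hoxa10, Hoxa11, Pgr, Esr1), all 5 fibroblast, all 5 smooth muscle and all 5 endothelial markers had one. So did 4 of 5 epithelial markers, the exception being Krt18. The 44.9% over all protein-coding genes lies below the uterine interval (51.0 to 100) and the 56.6 to 100 of the other complete lists. The epithelial interval (37.6 to 96.4) holds it. These short lists were chosen with earlier results of these data known. The strongest summits of Hoxa11 and Dpt are shared with other genes, and Hoxa11 has no unshared peak. Of the 5 embryo markers, Gata6 had peaks, and Gata4, Pou5f1, Nanog and Cdx2 had none (20%, 3.62 to 62.4, an interval that holds the 44.9%). In whole tissue, fewer cells of a type and less RNA per cell cannot be told apart, and the list does not say which cells a collagen transcript came from.

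Where strand was known, most marked collagen genes had a summit close to the 3′ end of the span. This was so within 2 kb for 16 of the 21 genes (76.2%, 54.9 to 89.4), beside 48.6% of all protein-coding genes with a peak and a strand. In the last 10% of the span it was so for 19 of 21 (90.5%, 71.1 to 97.3), beside 49.5%. The 5 exceptions to the 2 kb count were Col23a1, Col24a1, Col4a4, Col6a6 and Col7a1. Of these, only Col24a1 and Col7a1 had no summit in the last 10%. The 2 kb distance was chosen after these values were seen, and a gene with more peaks has more chances of one near its end. Counted by peak, the collagen shares were the lower ones in value. Of 143 collagen summits, 17 lay within 2 kb of the 3′ end (11.9%, 7.56 to 18.2), beside 23.9% over all protein-coding genes. In the last 10% of the span lay 34 (23.8%, 17.5 to 31.4), beside 29.0%, which its interval holds. In the last 10%, the share was 8 of 19 in fibrillar genes (42.1%, 23.1 to 63.7) and 9 of 73 in type VI genes (12.3%, 6.62 to 21.8), intervals that do not overlap. The other 10 of the 29 fibrillar peaks, in Col1a1 and Col5a2, are left out of this comparison for want of a strand, while all type VI peaks are in it. Without the type VI genes the collagen share was 35.7%. Peaks of 1 gene share their transcript and are not independent, and spans include introns.

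Peaks over a start of transcription were uncommon in collagen genes and in others, and both collagen intervals below hold the general share. Among the 35 collagen genes with an entry in the RefSeq promoter table, a peak overlapped the table's window around the start in 4, Col5a1, Col6a2, Col18a1 and Col4a6 (11.4%, 4.54 to 26.0), beside 7.72% of protein-coding genes in the table. The start in Col18a1 lies inside the span, and the summit there was 53135 bases from the span's 5′ end. In Col5a1 and Col6a2 the peak covered the start itself (5.71%, 1.58 to 18.6), beside 4.8%. These 2 are shown because the bases of a collagen peak across its start site can be read in them. The sequences run 5′ to 3′ on the gene's strand, from 100 bases before the start to 30 bases from it on, after RefSeq on GRCm38.p6, with the bases under the peak in capitals.
Col5a1, chr2:27886325-27886454, plus strand: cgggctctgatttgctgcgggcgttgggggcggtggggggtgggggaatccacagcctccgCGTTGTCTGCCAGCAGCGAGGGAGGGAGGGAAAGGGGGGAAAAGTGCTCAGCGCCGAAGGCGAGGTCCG
Col6a2, chr10:76623375-76623504, minus strand: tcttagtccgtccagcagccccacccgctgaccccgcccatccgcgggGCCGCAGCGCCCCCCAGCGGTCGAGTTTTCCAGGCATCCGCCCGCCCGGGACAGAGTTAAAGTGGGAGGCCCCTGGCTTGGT

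Both peaks were weak, 5.65 (2.89 to 10.2) from 9 fragments in Col5a1 and 5.85 (2.90 to 10.9) from 8 in Col6a2, with summits 100 and 98 bases downstream of the start in that table. From the 5′ end of the gene's span the summits were 144 and 324 bases away, so both starts lie inside the span. Both peaks lie wholly in the span, and so do the capitals before the start. The letters GGAC, the core of the most common m6A context, occur 1 time in the capitals of Col6a2 and not in those of Col5a1. On the opposite strand (GTCC) they occur 1 time in the capitals of Col5a1. The capitals are 69 bases in Col5a1 and 82 in Col6a2. Over the full 130 bases, GGAC occurs 0 times in Col5a1 and 1 time in Col6a2, and GTCC 1 and 2 times. Of 21263 full windows of protein-coding genes in RefSeq, 39.8% hold GGAC and 40.1% GTCC, shares that do not apply to the shorter capitals. The summits themselves lie beyond these windows, so their sequence was not examined.

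Genes that make, process, bind or degrade collagen carried peaks as well. Of 61 such genes, 40 had one (65.6%, 53.0 to 76.3), with a median of 8.69 for the strongest peak, beside 44.9% and 9.36 over all protein-coding genes. The lists were chosen with earlier results of these data known, so the interval cannot show that such genes are marked more often. Among the 19 that hydroxylate, glycosylate and fold the chains, 12 had a peak. Mia3, a receptor that loads procollagen at the endoplasmic reticulum exit, was highest at 13.4 (8.15 to 21.1) with 10 peaks, and Ppib, a proline isomerase, was lowest at 4.33 (2.55 to 6.97). The collagen chaperone gene Serpinh1 stood at 8.63 (6.71 to 10.9), and the lysyl hydroxylase genes Plod1 and Plod2 at 9.19 (6.78 to 12.2) and 9.46 (6.90 to 12.7). Plod3, P4ha2, P4ha3, P3h4, Crtap, Fkbp10 and Fkbp14 had none.

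Of the 8 genes of propeptide cleavage, 6 had a peak. Adamts3, a procollagen N-proteinase gene, stood at 17.3 (12.1 to 24.1). Its interval lay above those of Adamts2 at 6.95 (3.76 to 12.0), only just, and of Bmp1 at 6.09 (4.02 to 8.88). Adamts14 was lowest at 5.11 (2.23 to 10.8) from 5 fragments over a background of 0.175, the lowest value in the whole peak list. Pcolce2 and Tll2 had none. All 6 cross-linking genes had a peak. Loxl2, a lysyl oxidase, led at 20.2 (15.6 to 25.8), Lox itself stood at 9.07 (6.18 to 12.9), and Loxl4 was lowest at 5.88 (2.91 to 11.0). The single peak of Loxl3 lies in a span shared with Htra2.

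The small proteoglycans that bind fibrils had the lowest median of the 6 lists, 4.49. Of 7, 5 had a peak. Lum, lumican, stood at 10.3 (7.46 to 13.9), while Dcn, decorin, stood at 4.49 (2.54 to 7.46) and Bgn, biglycan, at 3.89 (2.78 to 5.30) over a background of 9.04. The peak of Ogn is shared with Cenpp. Aspn and Kera had none. Of 10 collagen receptor genes, 6 had a peak. The integrin genes Itga1, at 14.8 (10.5 to 20.5), and Itgb1, at 12.4 (7.86 to 18.6), stood above the discoidin receptor genes Ddr1 at 7.09 (4.30 to 11.1) and Ddr2 at 8.13 (6.14 to 10.6) in value, but the intervals overlapped in every such pair. The summit in Itga1 is shared with Pelo. Mrc2 was lowest at 4.73 (2.56 to 8.15), and Itga2, Itga10, Gp6 and Lair1 had none.

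Among 11 genes of collagen breakdown, 5 had a peak, and the highest values were those of inhibitors. Timp3, in a peak shared with Syn3, and Timp2 stood at 23.3 (17.5 to 30.5) and 19.9 (14.2 to 27.1). The collagenolytic genes Mmp2 and Mmp14 stood at 9.75 (7.15 to 13.0) and 9.44 (7.71 to 11.5), and the lowest was Mmp9 at 6.30 (3.01 to 12.2). Timp1, Mmp1a, Mmp8, Mmp13, Ctsk and Fap had no peak. No test between lists was made.

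**Figure D3:**
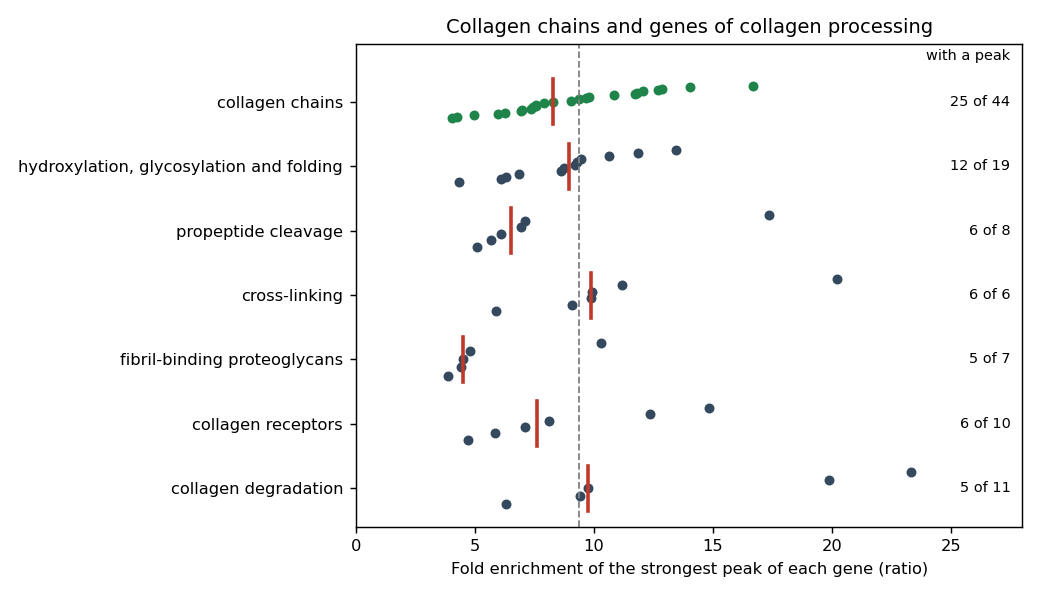
Fold enrichment (ratio) of the strongest peak of each gene, 1 point per gene, for the collagen chains and 6 lists of genes that process, bind or degrade collagen, with the list medians as red bars, the number of genes with a peak at the right and a dashed line at the median of 9.36 over protein-coding genes with a peak. Points at 17.3 (Adamts3), 20.2 (Loxl2), 19.9 (Timp2) and 23.3 (Timp3) lie right of every collagen chain.

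Compared with other families of the extracellular matrix, the collagen chains had more peaks per marked gene over higher backgrounds. Of 37 laminin and integrin chain genes, 25 had a peak (67.6%, 51.5 to 80.4), with a median of 2 peaks and a strongest value of 7.61 at the median. Of 76 ADAM, ADAMTS and matrix metalloproteinase genes, 36 had one (47.4%, 36.5 to 58.4), with medians of 1.5 peaks and 8.11. The median background was 3.46 in collagen genes, 1.40 in the laminins and integrins and 1.37 in the proteases. Relative to span length the order was another one. The median share of the span under peaks was 1.53% in collagen genes, 1.14% in the laminins and integrins and 1.63% in the proteases. These differences were not tested.

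The backgrounds of collagen peaks, on the scale of the IP library, had a median of 3.79 fragments beside 1.42 over all peaks, and their fold enrichments a median of 6.11 beside 7.14. In 19 of the 25 genes the median background was above the 1.54 of protein-coding genes with a peak. The 6 others were Col4a4, Col6a6, Col7a1, Col23a1, Col14a1 and Col8a2, none with more than 19 fragments at a summit. The part of the background in the ratios was not tested.

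**Figure D4:**
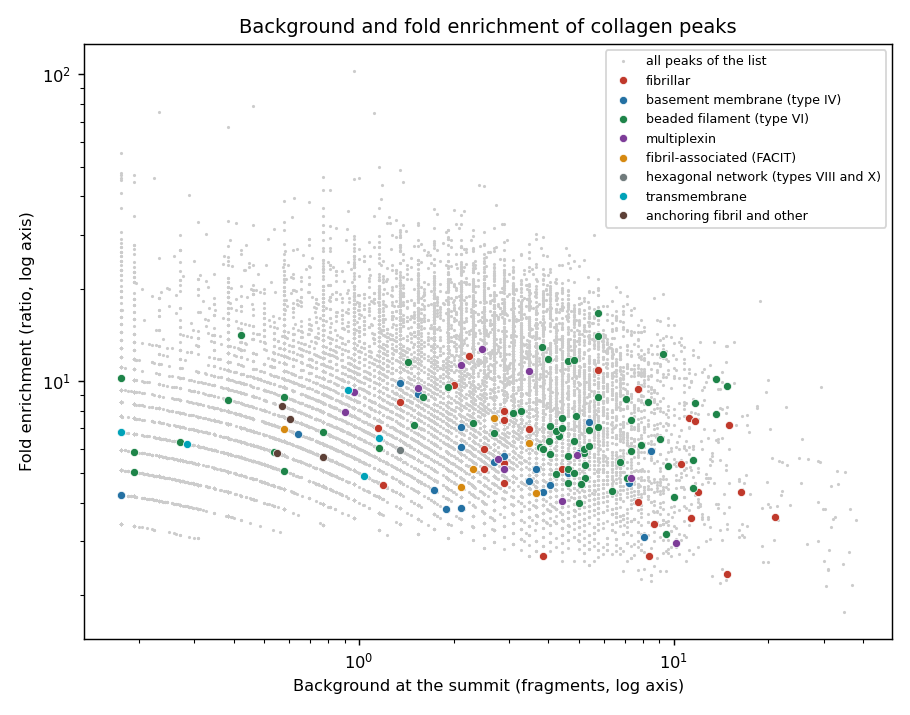
Fold enrichment (ratio, log axis) against the background at the summit (fragments, log axis) for the 156 collagen peaks, coloured by class, over all 26584 peaks in grey. Collagen peaks lie mostly right of the median background of 1.42, and the collagen peak farthest right is that of Col3a1, at a background of 21.0 and a fold enrichment of 3.60. Rows of grey points arise because pileups are whole numbers.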

How the data were processed

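The peak list was made by the authors with HISAT2 2.2.1 and MACS3 3.0.0a7 on mm10, per the submitters' processing notes. Its options, any pooling and its control were not given in the sources used here. Within the list, the deposited fold enrichment is a ratio at the summit. The deposited −log10 p-value and q-value and the deposited score, which is 10 times −log10 q to within 1 in all 26584 peaks, were used only within the list. The pileup and the background were solved from ratio and p-value, and the pileup came out whole within 0.05 of a step in 99.97% of peaks. On 2000 simulated peaks, built with the same formula that the solver inverts, it returned the true pileup in 100% of cases. That checks the solver's arithmetic and cannot show how the deposited values were made.

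Gene spans came from RefSeq on GRCm38.p6, the assembly of mm10, and strand from its promoter table, which held 35 of the 44 members. A summit counted for every gene whose span held it. 5 collagen summits lay in the spans of other genes too. The p-values of the peak caller are not p-values across samples. The design's DRACH motif and protein features were not analysed here for want of genome and protein sequences. The members and lists were chosen with earlier results of these data known. By rule, all members are named, in each pathway list the highest, the lowest and those without a peak, other pathway genes as examples, and genes sharing a collagen summit. Syn3, Pelo, Cenpp and Htra2, which share summits with pathway genes, were named after their values were seen. Alternatives covered the q-value, the fold enrichment, the overlap rule, the median over peaks, the added 1 and the 3′ window. Figures used matplotlib 3.10.9. Calculations used scipy 1.17.1, pandas 2.3.3 and numpy 2.4.6 under Python 3.11.15.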

Additional observations from a re-analysis of the deposited data

How the results depend on the processing

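The share of collagen genes with a peak was 56.8% with a fold enrichment of at least 4, beside 43.9% over protein-coding genes. Under each other rule of overlap it was 56.8% too. The share over protein-coding genes was then 45.3% for any overlap and 44.9% for at least 50% of the peak within the span. For summits in exactly 1 gene it was 40.9%, just below the collagen interval of 42.2 to 70.3. With −log10 q of at least 5 the collagen share was 54.5%, beside 41.3%. The number of peaks ranged from 142 to 157, and the number of pathway genes with a peak from 36 to 40. With summits in exactly 1 gene, the median of the strongest peaks was 7.59 in place of 8.29. It was 6.00 (5.54 to 6.66) when each gene was represented by its median peak, below the 7.43 over protein-coding genes. Without the 1 added to pileup and background it was 15.6, with no value over protein-coding genes to set beside it. The share of summits near the 3′ end was 33.6% in the last 20% of the span, beside 42.8% over protein-coding genes, in place of 23.8% in the last 10%. Chosen after the data were seen, it was 11.9% within 2 kb, beside 23.9%, and, in the last 10%, 35.7% without the type VI genes. No paired analysis was possible because there is 1 IP and 1 input sample and only 1 peak list. Leaving out a replicate was not possible either. No peak of Col4a4, Col6a6, Col7a1, Col8a2, Col14a1 or Col23a1 had more than 19 fragments.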

Other observations

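A peak at chromosome 9, 105689278 to 105689483, overlapped Col6a6 while its summit lay 31 bases beyond the span, on the side of the 3′ end. It stood at 8.67 (4.69 to 14.9) from 11 fragments over a background of 0.384 and was not counted for the gene.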
